A study of Mus musculus with 13 samples.

Results

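Dcn, Ogn, Fn1, Prg4, Aldh1a2, Slc6a20a, Slc22a6, Slc13a4 and Slc47a1 are genes known from the fibroblasts of the meninges, the membranes around the brain. They were taken as a named list, chosen with earlier results of these data known. All 9 were among the 26264 genes of the deposited table. All 9 passed the filter on low values (at least 10 normalized counts in at least 2 libraries), as did 17755 genes in all. Slc47a1, at 7.64 normalized counts in 1 library, was the only one of the 9 below 10 anywhere.

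The libraries hold total RNA of tissue punched from the ventral tegmental area (VTA) of mice, a midbrain region rich in dopamine neurons, and were sequenced in bulk. The strain is labelled C57BlJ/6. Setd7, the gene of a lysine methyltransferase, was overexpressed in the VTA on postnatal day 14, and tissue was taken from adult mice. Some mice had met social defeat, a stress in which an adult is repeatedly overpowered by an aggressor. The GFP control group had GFP virus and no defeat (3 libraries, 1 from a female and 2 from males), and the GFP defeat group had GFP virus and defeat (4 libraries, 2 from females and 2 from males). The Setd7 control group had Setd7 virus without defeat (4 libraries, 2 from females and 2 from males), and the Setd7 defeat group had both (2 libraries, replicate 1 from a female and replicate 2 from a male). Every group thus carried a virus. The type of virus, the promoter, the cells it reached and the age at sampling are not given in the sources used here. The titles give each library a different number and name its sex, so the female and male libraries of a group came from different animals. The labels do not say so for libraries of 1 sex within a group, and p-values measure the spread between these libraries, part of which may be technical. The number that names Setd7 defeat replicate 1 has more digits in the header of the table than in the sample's title, and whether that library holds 1 animal is not settled.

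Meningeal fibroblasts secrete the collagens, proteoglycans and glycoproteins of the pia, arachnoid and dura. During development they make retinoic acid that acts on the brain below them, and in the adult they carry membrane transporters for amino acids, organic ions and sulfate. They lie on the brain surface and along larger vessels, so a punch of brain tissue holds few of them.

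Libraries held 26548713 to 50842070 reads, and the level of Setd7 was 10888 to 14538 normalized counts in the 7 GFP libraries and 28587 to 158681 in the 6 Setd7 libraries. Th, the dopamine-synthesizing enzyme that marks the VTA, ranged from 2508 to 19111. It was 3392 and 2508 in GFP control replicates 2 and 3, 2539 in GFP defeat replicate 1, and at least 9760 in every other library. The low libraries were all GFP libraries, so low Th and virus cannot be fully told apart in comparisons with them. A normalized count is the number of reads of a gene divided by the size factor of its library.

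All 9 genes were highest in the same library, Setd7 defeat replicate 1. Their level there was 2.48 (Dcn) to 20.8 (Slc13a4) times the median of the other 12 libraries, with a median of 9.14 times over the 9 genes. Summed, the 9 genes held 15628 normalized counts in that library and 3369 to 4629 in the others. Of all genes tested, 9.47% were highest in this library and 0.67% were over 2-fold above the next highest library there, a margin that 8 of the 9 genes passed. Setd7 control replicate 4 had 214 genes over 2-fold above the next library (1.21% of genes) and Setd7 defeat replicate 1 had 119, but none of the 214 was one of the 9. Setd7 defeat replicate 1 had 35305070 reads, inside the range of the other libraries.

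**Figure D1:**
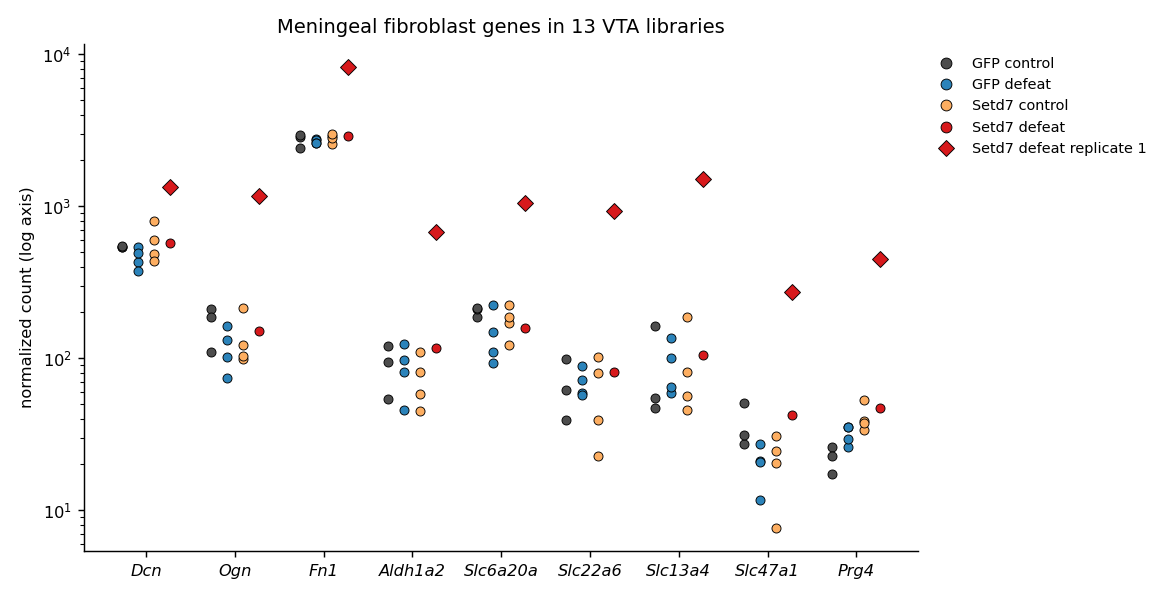
Level of the 9 meningeal fibroblast genes in each of 13 VTA libraries, in normalized counts on a log axis. Each point is 1 library, coloured by group, and the diamond is Setd7 defeat replicate 1. The diamond is the highest point of all 9 genes, from 273 for Slc47a1 to 8241 for Fn1, while Setd7 defeat replicate 2 lies among the other libraries.

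Since the 9 genes were high together, the sequences before their start sites are shown for those that carry a motif. The RefSeq table (GRCm38.p6) held 5 of the 9 genes, Ogn, Aldh1a2, Slc6a20a, Slc22a6 and Slc13a4, and 250 bases before each start were searched on both strands. In capitals are GGAATG, the core that TEAD factors of the Hippo pathway bind, and CCAAT, a common promoter box, or their reverse complements CATTCC and ATTGG:
Ogn: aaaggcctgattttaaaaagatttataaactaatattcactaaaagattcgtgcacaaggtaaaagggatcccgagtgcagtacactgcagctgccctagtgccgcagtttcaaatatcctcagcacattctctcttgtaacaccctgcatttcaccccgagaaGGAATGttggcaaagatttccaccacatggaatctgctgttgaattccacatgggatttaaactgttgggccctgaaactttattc
Aldh1a2: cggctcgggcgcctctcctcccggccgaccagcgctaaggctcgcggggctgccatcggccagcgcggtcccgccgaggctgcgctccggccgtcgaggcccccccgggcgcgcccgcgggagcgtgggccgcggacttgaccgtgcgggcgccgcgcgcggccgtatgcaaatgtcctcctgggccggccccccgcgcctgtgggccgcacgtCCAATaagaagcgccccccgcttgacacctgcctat
Slc22a6: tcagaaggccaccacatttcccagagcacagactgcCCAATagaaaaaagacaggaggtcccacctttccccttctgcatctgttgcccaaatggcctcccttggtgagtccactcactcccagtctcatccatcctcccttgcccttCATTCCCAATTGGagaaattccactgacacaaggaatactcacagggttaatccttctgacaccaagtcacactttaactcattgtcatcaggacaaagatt
Slc13a4: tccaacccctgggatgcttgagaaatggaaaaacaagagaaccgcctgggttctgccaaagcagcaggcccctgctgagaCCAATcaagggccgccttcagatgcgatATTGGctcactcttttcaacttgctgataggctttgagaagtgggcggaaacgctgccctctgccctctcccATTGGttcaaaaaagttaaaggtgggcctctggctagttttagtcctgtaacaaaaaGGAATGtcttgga
These stretches are chr13:49607765-49608014 (Ogn, plus strand), chr9:71215539-71215788 (Aldh1a2, plus strand), chr19:8617746-8617995 (Slc22a6, plus strand) and chr6:35308127-35308376 (Slc13a4, minus strand). GGAATG occurred in 3 of the 5 promoters, those of Ogn (position -86 from the start), Slc22a6 (-102) and Slc13a4 (-13), and in 12.6% of 32851 promoters of the same length. In Slc22a6 it overlaps a CCAAT box. CCAAT was in 3 of 5 (Aldh1a2 at -36, Slc22a6 and Slc13a4) and in 33.8% of all promoters. TATAAA, the TATA box, was in 1 of 5 (Ogn, at -227 on the plus strand) and in 12.4% of all. The forkhead motif GTAAACA (3.17% of all), the nuclear receptor half-site AGGTCA (14.02%) and the E-box CACGTG (6.02%) were in 0 of 5. The motifs were chosen after the levels were known, and a match is a description of the letters, not of a bound site.

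Among the matrix genes, Dcn encodes decorin, a small leucine-rich proteoglycan that binds collagen fibrils. It read 537, 539 and 544 normalized counts with GFP alone, 536, 429, 372 and 496 with GFP and defeat, 486, 804, 602 and 436 with Setd7 alone, and 1333 and 571 with Setd7 and defeat (values here and below in the order of the replicates). Setd7 defeat replicate 1 was 1.66 times the next library, Setd7 control replicate 2, the smallest margin among the 9 genes. The Setd7 defeat libraries lay above all GFP defeat libraries, but replicate 2 lay within the Setd7 control range.

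Ogn encodes osteoglycin (mimecan), another small leucine-rich proteoglycan. Its levels were 210, 110 and 186 with GFP alone, 132, 102, 74.0 and 163 with GFP and defeat, 98.3, 214, 123 and 104 with Setd7 alone, and 1166 and 151 with Setd7 and defeat. Replicate 1 of Setd7 defeat stood 5.46 times above the next library, whereas replicate 2 fell inside the range of every other group. The ranges of the other 3 groups overlapped each other.

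Fn1 encodes fibronectin, a matrix glycoprotein that integrins bind. It had 2838, 2921 and 2431 normalized counts with GFP alone, 2789, 2715, 2598 and 2589 with GFP and defeat, 2569, 2914, 2801 and 2983 with Setd7 alone, and 8241 and 2876 with Setd7 and defeat. Fn1 was the steadiest of the 9 genes: its highest of the other 12 libraries was 1.23 times its lowest. Against that narrow spread, Setd7 defeat replicate 1 was 2.76 times the next library. Replicate 2 was above the 4 GFP defeat libraries and within the Setd7 control range.

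Prg4 encodes proteoglycan 4 (lubricin), a mucin-like lubricant of joint surfaces. Its levels were 26.1, 22.8 and 17.2 with GFP alone, 35.1, 26.0, 35.2 and 29.2 with GFP and defeat, 33.8, 52.7, 38.8 and 37.7 with Setd7 alone, and 449 and 46.9 with Setd7 and defeat. Replicate 1 of Setd7 defeat was 8.53 times the next library. All 4 Setd7 control libraries lay above the 3 GFP control libraries, and both Setd7 defeat libraries above the 4 GFP defeat libraries. In the GENCODE annotation Prg4 shares 204 exon bases with Tpr and Fn1 shares 292 with Apol7d, both on the opposite strand, and whether reads were counted by strand is not given in the sources used here.

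Aldh1a2 encodes the dehydrogenase RALDH2, which makes retinoic acid from retinaldehyde. It read 93.9, 53.5 and 121 with GFP alone, 123, 81.1, 45.8 and 96.8 with GFP and defeat, 44.8, 109, 58.3 and 80.5 with Setd7 alone, and 678 and 116 with Setd7 and defeat. Setd7 defeat replicate 1 was 5.50 times the next library, GFP defeat replicate 1. Both Setd7 defeat libraries were above all Setd7 control libraries, and replicate 2 was within the GFP ranges.

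The carriers began with Slc6a20a, a sodium-dependent transporter of proline and related imino acids. It had 186, 209 and 213 normalized counts with GFP alone, 223, 92.5, 109 and 148 with GFP and defeat, 121, 223, 169 and 187 with Setd7 alone, and 1046 and 158 with Setd7 and defeat. Only Setd7 defeat replicate 1, at 4.68 times the next library, lay apart, and replicate 2 was below all GFP control libraries. Slc6a20a has 563 exon bases in common with the antisense transcript Gm17120.

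Slc22a6 encodes the organic anion transporter OAT1. Its levels were 61.3, 39.3 and 98.0 with GFP alone, 88.9, 59.3, 57.6 and 71.6 with GFP and defeat, 39.3, 102, 22.7 and 79.5 with Setd7 alone, and 929 and 80.9 with Setd7 and defeat. The 4 groups overlapped apart from Setd7 defeat replicate 1, which was 9.07 times the next library, the largest such margin among the 9.

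Slc13a4 encodes a sodium-coupled sulfate transporter. It read 54.8, 47.1 and 163 with GFP alone, 136, 59.3, 64.6 and 101 with GFP and defeat, 45.9, 185, 56.1 and 80.5 with Setd7 alone, and 1512 and 106 with Setd7 and defeat. Within GFP control and within Setd7 control, 1 library (replicate 3 and replicate 2) was well above its group. Setd7 defeat replicate 1 was 8.15 times the higher of those, and replicate 2 was below both.

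Slc47a1 encodes MATE1, a proton-coupled exporter of organic cations, and per kilobase of exon was the scarcest of the 9 in the other libraries. It had 27.4, 31.4 and 50.6 normalized counts with GFP alone, 20.9, 20.8, 11.7 and 27.2 with GFP and defeat, 7.64, 24.5, 20.5 and 30.6 with Setd7 alone, and 273 and 42.2 with Setd7 and defeat. Its lowest level was only 7 reads, so the spread among low libraries holds counting error. Both Setd7 defeat libraries lay above GFP defeat and Setd7 control, and replicate 2 was below GFP control replicate 3.

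Ordered by group mean, Setd7 defeat came first for all 9 genes, but with a wide spread between its replicates: 952 ± 539 for Dcn, 5559 ± 3794 for Fn1, 809 ± 995 for Slc13a4 and 248 ± 285 for Prg4 (SD, n = 2). In none of the 9 genes did its mean exceed the next group's by more than that SD. With n = 2 no such excess can arise where replicate 2 lies near the next group's mean, however high replicate 1 is. Of the 27 steps between neighbouring groups in these orders, 4 were larger than the SD of both groups, and the ranges overlapped in 26. Among those 4 were both lower steps of Prg4, which ran from 40.8 ± 8.22 in Setd7 control (n = 4) through 31.4 ± 4.56 in GFP defeat (n = 4) to 22.1 ± 4.48 in GFP control (n = 3). The others were Slc47a1, 36.5 ± 12.4 in GFP control and 20.8 ± 9.70 in Setd7 control, and Dcn, 540 ± 3.47 in GFP control and 459 ± 72.4 in GFP defeat. Dcn in these GFP groups was the single pair without overlap.

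Compared per kilobase of exon, Fn1 was the most abundant of the 9 in both settings, with 239 normalized counts per kilobase as the median of the other 12 libraries and 705 in Setd7 defeat replicate 1. In the other libraries Dcn followed at 92.0, then Ogn (49.7), Slc6a20a (43.6), Aldh1a2 (38.6), Slc22a6 (16.7), Slc13a4 (16.0), Prg4 (8.06) and Slc47a1 (7.64). The order was different in Setd7 defeat replicate 1, where Ogn (455), Slc13a4 (334), Aldh1a2 (299), Slc6a20a (256) and Slc22a6 (233) all stood above Dcn (228). The level above the median of the others was 466 per kilobase for Fn1, 405 for Ogn and 318 for Slc13a4, but 136 for Dcn. The 4 genes that were lowest per kilobase in the other libraries had the 4 highest ratios, 10.6 (Slc47a1) to 20.8 (Slc13a4). On the difference per kilobase Slc47a1, at 73.0, was the lowest instead.

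Several of the genes lie beside a paralogue, and those neighbours were looked up after the levels were known. On chromosome 10 Dcn is followed by Lum, the related proteoglycan lumican, which read 353 in Setd7 defeat replicate 1 and 57.2 to 151 in the other libraries. On chromosome 13 Ogn follows Omd (osteomodulin), at 182 against 4.997 to 34.9. The organic anion transporter Slc22a8, next to Slc22a6 on chromosome 19, read 1217 against 337 to 503. Slc6a20b, next to Slc6a20a on chromosome 9, had 259 against 49.9 to 102, and how reads matching both copies were counted is not given in the sources used here. Slc47a2, 540 bases from Slc47a1 on chromosome 11, did not share the pattern: it had 8.02 against 0 to 9.07. Thus 4 of these 5 neighbours were also highest in that library, beside 9.47% of all genes, and Slc47a2, at a few reads per library, was not.

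For the effect of Setd7 after defeat (Setd7 defeat against GFP defeat), the 9 genes had log2 fold changes of 0.87 to 2.42 on the log2(normalized count + 1) scale, with a median of 1.89 beside 0.00 over all genes. None passed the limma test over all 17755 genes, where the share called was 0%: each had an adjusted p of 0.990. Limma called 0 genes, with 862 at an unadjusted p under 0.05, edgeR called 0 and DESeq2 called 6. At an unadjusted p under 0.05, 9 of 9 were higher, beside 2.59% of all genes, and 9 of 9 were above 0, beside 50.8%. The ranges of the 2 groups did not overlap for 4 of 9 (Dcn, Fn1, Slc47a1 and Prg4), beside 7.09% of all genes. The 9 were chosen with earlier results of these data known and are high together in Setd7 defeat replicate 1. Such counts, here and in the comparisons below, are thus descriptions and not 9 separate results. In bulk tissue, more cells of a type and more RNA per cell cannot be told apart.

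By role, the matrix genes gave 0.94 ± 0.26 (SE) for Dcn, 1.89 ± 0.54 for Ogn, 0.87 ± 0.25 for Fn1 and 2.19 ± 0.57 for Prg4. The retinoic acid enzyme Aldh1a2 gave 1.77 ± 0.55. Among the carriers the log2 fold changes were 1.58 ± 0.53 (Slc6a20a), 1.99 ± 0.72 (Slc22a6), 2.22 ± 0.83 (Slc13a4) and 2.42 ± 0.68 (Slc47a1). DESeq2 on the recovered reads called 2 of the 9, Slc47a1 (2.93, adjusted p = 0.0200) and Prg4 (2.74, adjusted p = 0.00333), which are 2 of its 6 calls (0.0338% of genes). EdgeR gave adjusted p values of 0.840 to 0.992 for the 9.

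Leaving out Setd7 defeat replicate 1 leaves 1 Setd7 defeat library, assumed to vary like the other groups. The median log2 fold change over the 9 genes was then 0.41. The values were 0.41 ± 0.28 for Dcn, 0.57 ± 0.49 for Ogn, 0.12 ± 0.12 for Fn1, 0.63 ± 0.42 for Prg4 and 0.64 ± 0.59 for Aldh1a2. For the carriers they were 0.22 ± 0.44 (Slc6a20a), 0.38 ± 0.71 (Slc22a6), 0.34 ± 0.81 (Slc13a4) and 0.91 ± 0.70 (Slc47a1). All 9 had a value above 0, beside 51.2% of all genes in that fit, with adjusted p values of 0.800 to 0.964 by limma.

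**Figure D2:**
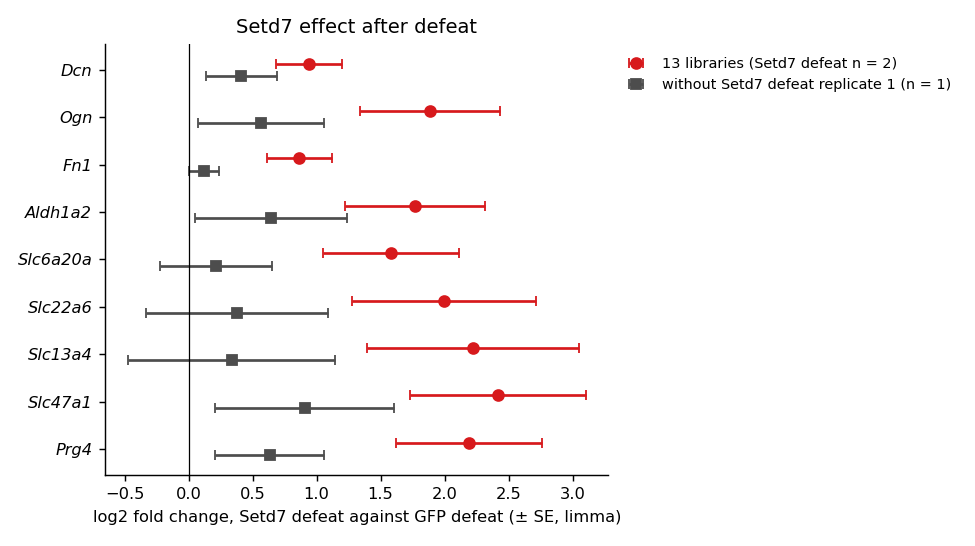
Log2 fold change of the 9 genes between Setd7 defeat and GFP defeat, ± SE by limma, with all 13 libraries (circles) and without Setd7 defeat replicate 1 (squares, 1 Setd7 defeat library left). The circles run from 0.87 to 2.42 and the squares from 0.12 to 0.91.

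The effect of defeat with Setd7 (Setd7 defeat against Setd7 control) rests on the same 2 Setd7 defeat libraries. The log2 fold changes were 0.62 ± 0.26 for Dcn, 1.71 ± 0.54 for Ogn, 0.79 ± 0.25 for Fn1 and 1.83 ± 0.57 for Prg4. Aldh1a2 had 2.01 ± 0.55, and the carriers had 1.25 ± 0.53 (Slc6a20a), 2.38 ± 0.72 (Slc22a6), 2.33 ± 0.83 (Slc13a4) and 2.47 ± 0.68 (Slc47a1). None of the 9 passed by limma (adjusted p = 0.9999 for each, 0% of genes called), while 9 of 9 were higher at an unadjusted p under 0.05, beside 1.45% of genes, and 9 of 9 were above 0, beside 48%. Over all genes limma called 0 (459 unadjusted), edgeR 0 and DESeq2 7 (0.0394% of genes), of which 3 were Prg4 (adjusted p = 0.0391), Aldh1a2 (0.0374) and Slc47a1 (0.0351). Aldh1a2 and Slc47a1 were the 2 genes whose groups did not overlap, beside 4.18% of all genes. Without Setd7 defeat replicate 1 the median was 0.39, and Slc6a20a turned to -0.12.

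The interaction, the Setd7 effect after defeat minus that without defeat, was 0.93 ± 0.35 for Dcn, 2.35 ± 0.73 for Ogn, 0.86 ± 0.34 for Fn1 and 1.44 ± 0.77 for Prg4. It was 2.16 ± 0.73 for Aldh1a2, 1.90 ± 0.71 for Slc6a20a, 2.37 ± 0.96 for Slc22a6, 2.26 ± 1.11 for Slc13a4 and 3.32 ± 0.92 for Slc47a1. None passed (adjusted p = 0.942 by limma, 0% of genes called), and 7 of 9 had an unadjusted p under 0.05 with a higher value, beside 2.51% of genes. All 9 were above 0, beside 50.1% of genes. Limma called 0 genes (880 unadjusted), edgeR 0 and DESeq2 1. Without Setd7 defeat replicate 1 the median was 0.46 and the value of Prg4 was -0.21.

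The comparisons that do not involve the Setd7 defeat group gave smaller values. Setd7 defeat replicate 1 still enters their fits, through the shared estimate of the spread and the sex term. For Setd7 without defeat (Setd7 control against GFP control) the log2 fold changes ran from -0.90 ± 0.61 (Slc47a1) to 0.76 ± 0.51 (Prg4), with a median of -0.31, 3 above 0 (51.4% of all genes) and 6 below. None passed by limma (0% of genes called), and 0 of 9 had an unadjusted p under 0.05, beside 4.31% of genes higher and 3.7% lower. Over all genes limma called 0 (1423 unadjusted), edgeR 0 and DESeq2 35. Even Setd7, the overexpressed gene, was not called by limma here (2.54 ± 0.40, adjusted p = 0.467). Prg4 was the 1 gene of the 9 whose groups did not overlap, beside 4.17% of all genes in that direction, and its adjusted p was 0.735 by limma. Dcn (0.01 ± 0.23) and Fn1 (0.00 ± 0.22) had the values nearest 0. In the fit without Setd7 defeat replicate 1 the median was -0.24. Prg4 then had 0.84 ± 0.28 and Fn1 0.04 ± 0.08, with smaller SEs than in the fit of all libraries.

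For defeat with GFP (GFP defeat against GFP control) the range was -0.85 ± 0.61 (Slc47a1) to 0.40 ± 0.51 (Prg4), with a median of -0.16, 3 above 0 (49.6% of all genes) and 6 below. Again none passed by limma (0% of genes called), and 0 of 9 had an unadjusted p under 0.05, beside 4.87% higher and 4.38% lower of all genes, with 0 genes called by limma (1642 unadjusted), 0 by edgeR and 85 by DESeq2. Dcn (-0.30 ± 0.23, adjusted p = 0.716 by limma) and Slc47a1 (adjusted p = 0.699) were the 2 genes whose groups did not overlap, both lower, beside 4.74% of genes. These comparisons share the GFP control libraries.

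Averaged over defeat, the Setd7 effect on the 9 genes had a median of 0.71, all above 0 (51% of all genes), and was largest for Prg4 (1.47 ± 0.38, adjusted p = 0.686 by limma). At an unadjusted p under 0.05, 3 of 9 were higher (Dcn, Fn1 and Prg4), beside 3.7% of genes, and DESeq2 called Prg4 (adjusted p = 0.0185, 0.0394% of genes called). Without Setd7 defeat replicate 1 the median was 0.087, and Prg4 had 0.74 ± 0.25 (adjusted p = 0.649). Averaged over virus, the defeat effect had a median of 0.81, all above 0 (50.3% of all genes), with 4 of 9 higher at an unadjusted p under 0.05 (Prg4, Aldh1a2, Slc22a6 and Slc13a4), beside 2.34% of genes. Without that library its median was 0.092. Limma called 0 of the 9 in both, and over all genes it called 1 for Setd7 (0.00563% of genes, 1265 unadjusted) and 0 for defeat (0%, 919 unadjusted, with 0 by edgeR and 8 by DESeq2). That 1 gene was the overexpressed Setd7 itself (2.81 ± 0.30, adjusted p = 0.00861 by limma). In males against females, all 9 were lower (51.1% of all genes were higher), with a median of -0.61. By limma 0 of the 9 passed (0.062% of genes called), and 0 were lower at an unadjusted p under 0.05 (2.06%). Setd7 defeat replicate 1 is a female library, and without it the median was -0.11 with 2 above 0, beside 50.9% of genes.

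Among the other 12 libraries the 9 genes still differed in how they varied. Setd7 control replicate 2 was the highest of the 12 for 6 genes (Dcn, Ogn, Slc6a20a, Slc22a6, Slc13a4 and Prg4), beside 7.12% of all genes. Setd7 control replicate 1 was the lowest for 3, beside 6.62% of all genes. Setd7 defeat replicate 2 was neither the highest nor the lowest of the 12 for any of the 9. Over all genes it was the highest for 7.20% and the lowest for 6.96%, so that absence is near the share of all genes. The mean of the 9 centred log2 values was 0.55 in Setd7 control replicate 2, 0.35 in GFP control replicate 3, 0.33 in Setd7 defeat replicate 2 and 0.26 in GFP defeat replicate 1. At the low end were GFP defeat replicate 3 (-0.45) and Setd7 control replicate 1 (-0.53). The extremes thus fell within the Setd7 control group, and no group held only high or only low libraries apart from the single one left in Setd7 defeat.

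**Figure D3:**
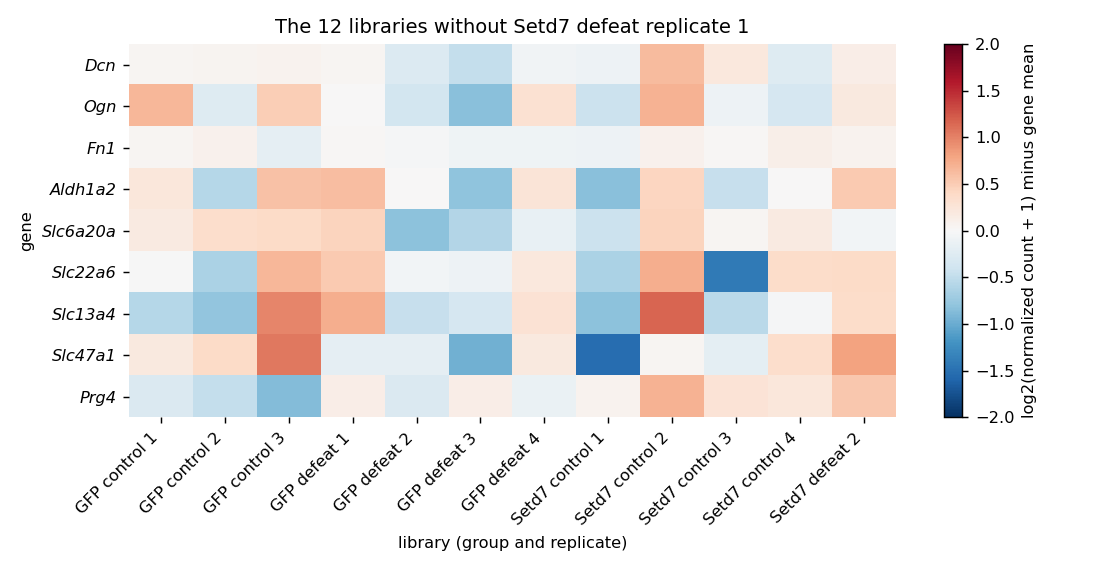
Deviation of each gene from its mean over the 12 libraries other than Setd7 defeat replicate 1, as log2(normalized count + 1) minus the gene's mean, with genes in rows and libraries in columns. Red is above and blue below the mean. In Setd7 control replicate 2 Slc13a4 (1.17), Slc22a6 (0.72), Prg4 (0.70) and Ogn (0.69) are red, while Fn1 stays pale throughout.

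Over all 13 libraries each of the 36 pairs of genes had a Pearson r above 0.5 on the log2 scale (0.704 to 0.955, median 0.852). Over the 12 libraries without Setd7 defeat replicate 1, a choice made after that library was seen, r ran from -0.267 to 0.813 with a median of 0.452, and 14 of 36 were above 0.5. All points share the same libraries and size factors, so these are descriptions. The highest values over 12 libraries were for Slc22a6 with Slc13a4 (0.813), Aldh1a2 with Slc13a4 (0.807), Aldh1a2 with Slc22a6 (0.779), Ogn with Aldh1a2 (0.756) and, for the 2 proteoglycans, Dcn with Ogn (0.751). Prg4 (median 0.033 with the other genes) and Fn1 (0.158) were the least like the rest.

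The genes whose log2 values followed the mean of the 9 most closely over 13 libraries were taken from 13892 with a mean of at least 30 normalized counts. Among the first 10 were Aebp1 (r = 0.967), Bgn (0.964), Islr (0.962), Vtn (0.957), Crispld2 (0.957), Col1a1 (0.956), Fmod (0.953), Mrc2 (0.952) and Tgfbr3 (0.952), while the median gene had 0.00 and 38 exceeded 0.9. Bgn (biglycan) read 1580 in Setd7 defeat replicate 1 and 343 to 714 elsewhere. Fmod (fibromodulin) read 1774 against 81.0 to 410. Over the other 12 libraries r was 0.938 for Col1a1, 0.930 for Bgn, 0.895 for Fmod and 0.828 for Aebp1, but 0.668 for Mrc2 and 0.647 for Tgfbr3. These genes were thus not equally close once Setd7 defeat replicate 1 was left out.

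A wider set of 29 further meningeal fibroblast genes was also high in the same library. In Setd7 defeat replicate 1, 27 of 29 were the highest of 13 (9.47% of all genes), with a median of 4.08 times the median of the others. There 22 were over 2-fold above the next library (0.67% of all genes). Their mean followed that of the 9 genes with r = 0.894 over the other 12 libraries. Among them Foxc1, a transcription factor of meningeal development, read 1117 against 306 to 525, and its relative Foxc2 read 328 against 12.2 to 55.1. Igf2, a growth factor, read 8530 against 939 to 2946, and Ptgds, the prostaglandin D2 synthase of the leptomeninges, read 37314 against 5175 to 10767. Not highest there were Pdgfra (3132 against 2213 to 3292) and Zic1 (1068 against 242 to 3711). After defeat 29 of 29 had a Setd7 effect above 0 with a median of 1.02, beside 50.8% of all genes. Without that library 17 of 27 did with a median of 0.07, beside 51.2% of all genes. Slc22a2 and Asgr1 are the 2 that passed the filter on low values only with that library. They are in the counts and medians of the 29, but their high values there are no support. None passed by limma, and Foxc1 (0.89 ± 0.27), Slc22a8 (0.89 ± 0.27), Foxc2 (2.20 ± 0.68) and Ccn3 (1.59 ± 0.53), the 4 with the smallest unadjusted p, had an adjusted p of 0.990.

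Lists of matrix genes, which share members such as Bgn, Fmod and Col1a1 with that set, gave lower ratios. Of 9 further small leucine-rich proteoglycans, 6 were highest there (median 3.13 times the others), and of 23 collagens and other matrix partners 19 were (median 2.45). Of all genes 9.47% were. Omd (2.28 ± 0.66), Bgn (1.05 ± 0.36) and Fmod (1.800 ± 0.75) had the smallest unadjusted p among the proteoglycans for Setd7 after defeat. Among the partners Itgb1, a fibronectin receptor subunit, had 0.35 ± 0.10, and the collagens Col1a1, Col6a2 and Col6a1 had 1.04 ± 0.38, 1.05 ± 0.39 and 1.22 ± 0.50. None of either list passed by limma (adjusted p = 0.990 for those named). Higher were 8 of 9 proteoglycans (median 1.02) and 22 of 23 partners (0.57), beside 50.8% of all genes. Without Setd7 defeat replicate 1 these were 7 of 9 (0.28) and 9 of 23 (-0.10), beside 51.2% of all genes.

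The rest of the retinoic acid pathway differed from Aldh1a2. Of 16 further genes of this pathway, 4 were highest in Setd7 defeat replicate 1 (9.47% of all genes), with a median of 1.08 times the others. Over 2-fold above the next library was 1 gene (0.67% of all genes). That 1 gene was Crabp2, a cytoplasmic retinoic acid carrier, at 120 against 2.86 to 21.5 (1.88 ± 0.80 after defeat, adjusted p = 0.990 by limma). Aldh1a1, the related enzyme that marks some dopamine neurons, read 14938 against 4533 to 18073. In the Setd7 effect after defeat 10 of 16 were higher with a median of 0.18, beside 50.8% of all genes. Without that library 10 of 16 were higher with a median of 0.07, beside 51.2% of all genes. None passed by limma.

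Of 13 further solute carriers of brain barriers, 8 were highest in Setd7 defeat replicate 1 (median 2.82 times), beside 9.47% of all genes. Over 2-fold above the next library were 7, beside 0.67% of all genes. Slc6a13, Slc22a2 and Slc22a8 are also in the wider meningeal set, and Slc22a8 and Slc6a20b among the paralogues above. These counts thus overlap and are not separate results. Slc6a13, a GABA and taurine transporter, read 887 against 60.3 to 209. The anion exchangers Slc26a7 (1.88 ± 0.50) and Slc26a2 (0.69 ± 0.19) and the cation transporter Slc22a2 (3.09 ± 1.07) were among the 4 with the smallest unadjusted p after defeat, with an adjusted p of 0.990 by limma. Slc22a2 read 44.1 and 10.6 in the Setd7 defeat libraries and 0 to 6.46 in the other 11. It thus passed the filter on low values only through the group where it was high. Its value is no support, though the counts and medians of the 13 carriers include it. It is the carrier not tested without replicate 1. In all, 10 of 13 were higher with a median of 0.81, beside 50.8% of all genes, and none passed by limma. Without that library 6 of 12 were higher with a median of -0.02, beside 51.2% of all genes.

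**Figure D4:**
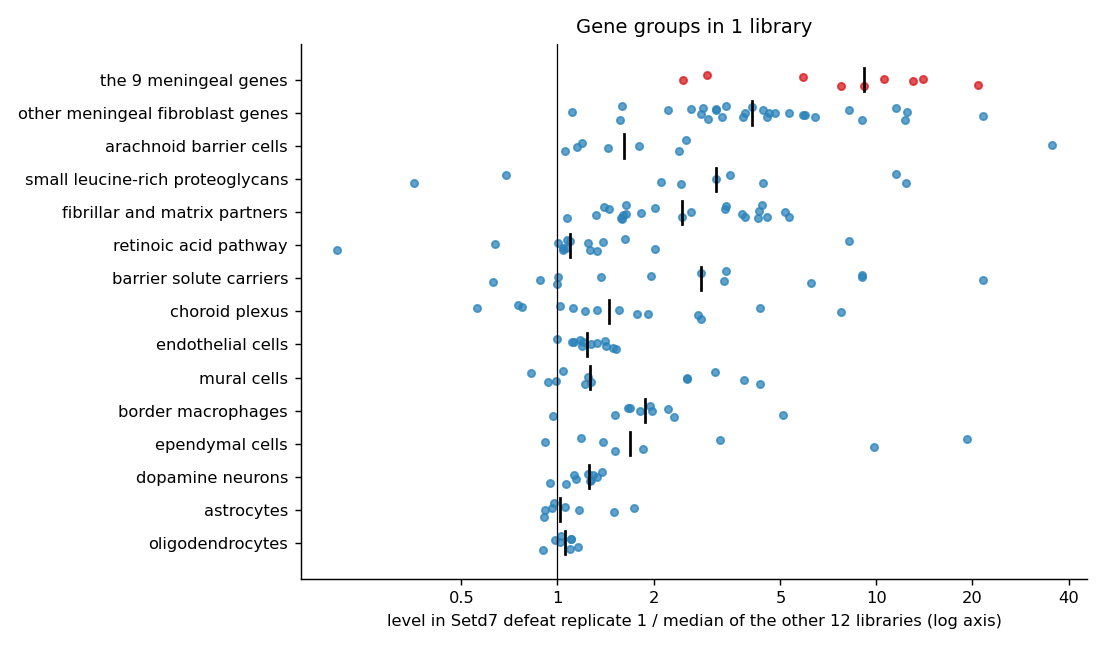
Level in Setd7 defeat replicate 1 divided by the median of the other 12 libraries, on a log axis. Each point is a gene, grouped by list, the thick bar is the list's median, and the thin line marks 1. The 9 genes have a median of 9.14 and the other meningeal fibroblast genes 4.08, while the medians of astrocytes (1.02), oligodendrocytes (1.06) and endothelial cells (1.24) lie near 1.

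Markers of neighbouring cell types were measured in the same library. Of all genes, 9.47% were highest there and 0.67% were over 2-fold above the next library. Cdh1, the E-cadherin of arachnoid barrier cells, read 581 against 5.04 to 47.4, the barrier marker Dpp4 read 148 against 37.1 to 96.5, and Krt8 was at 0 there and in all other libraries but 1 (1.48). Of the 8 arachnoid barrier genes tested, 6 were highest in it, with a median of 1.62 times the others, but Cdh1 was the only 1 over 2-fold above the next library. The 2 not highest there were Krt18 (19.1 against 4.16 to 26.7) and Cldn11 (13349 against 10359 to 14164). Border macrophage genes were highest there in 8 of 10 (median 1.88 times), 1 of them over 2-fold above the next library (Pf4, 31.1 against 1.43 to 15.1). Mural genes were highest there in 6 of 12 (1.26 times), 2 of them over that margin (Vtn, 3601 against 1173 to 1762, and Tagln, 798 against 112 to 327). Endothelial genes were highest there in 9 of 12 (1.24 times), 0 over that margin, and summed to 24858 against 19349 to 21921 in the others.

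The epithelium of the choroid plexus shares several of the carriers. Of its 14 genes tested, 2 were highest in Setd7 defeat replicate 1 (9.47% of all genes), with a median of 1.45 times the others. Their summed level was 14471 against 11151 to 15014 in the others, and Folr1 read 4.01 against 1.02 to 20.03. Ttr (transthyretin, the defining product of this epithelium) read 463 against 10.6 to 556. That was 7.75 times the median of the others, the highest ratio in the list. GFP defeat replicate 4 (556) and Setd7 control replicate 2 (513) were higher still. The potassium channel Kcnj13 was the exception over 2-fold above the next library, at 293 against 45.7 to 102. Ependymal genes had a median of 1.69 times the others in Setd7 defeat replicate 1 and up to 19.2 times (Tmem212, 39.1 against 0 to 75.6), though 0 of 8 were highest there. Dopamine neuron (0 of 10, median 1.26 times), astrocyte (0 of 8, 1.02) and oligodendrocyte genes (0 of 8, 1.06) were also highest in another library in every case, and Th read 11999 there. The 4 globin genes of the blood list were at 0 in all libraries, which gives no measure of blood. Of the 2 blood genes tested, Slc4a1 was highest in Setd7 defeat replicate 1 (54.2 against 6.12 to 45.6). Alas2 was not (224 against 151 to 538). What part the meningeal, arachnoid, mural, macrophage, choroid plexus and ependymal markers have in the group differences of the 9 genes was not tested.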

How the data were processed

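Total RNA was purified with RNeasy Micro kits and made into TruSeq RiboZero libraries, per the labels' protocols. Bowtie2, featureCounts and DESeq2 and the build GRCm39 are named in the submitters' processing notes, without versions. Values are a signal that the authors deposited as a single table of 26264 genes by 13 libraries, in which gene counts are divided by DESeq2 size factors. Dividing each column by its smallest step gave whole numbers for 100% of 341432 values (within 0.01), which served as recovered reads (26548713 to 50842070 per library).

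Genes with at least 10 normalized counts in at least 2 libraries (17755) were fitted with limma 3.58.1 (R 4.3.3, with trend) on log2(normalized count + 1), with 4 group means and sex over all 13 libraries. P-values are two-sided, adjusted by Benjamini-Hochberg over all genes tested, with a threshold of 0.05. The alternatives were edgeR 4.0.16 and DESeq2 1.42.0 on the recovered reads, TMM scaling, a pseudocount of 5, no filter or a filter in at least 4 libraries, no sex term, a robust fit, only the groups compared, each library left out in turn, and 3 libraries low in Th left out. The limma script was tested on simulated data.

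The 9 genes and 15 further gene lists were chosen with earlier results of these data known. The genes named are the 9, up to 4 of each list with the smallest unadjusted p for Setd7 after defeat, and the 10 genes with the highest r with the mean of the 9, of which 1 is not reported here. Other genes are named as cell type markers, paralogues beside the 9 or examples of a list, chosen after their values were seen. Replicates are numbered in accession order. Exon lengths, positions and overlaps come from GENCODE M21 (GRCm38) and promoters from RefSeq (GRCm38.p6), matched by symbol, while the deposited table is on GRCm39 and no coordinates were carried between builds.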

Additional observations from a re-analysis of the deposited data

How the results depend on the processing

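No paired analysis was possible because the replicate numbers were given in accession order and tie no library of one group to a library of another. DESeq2 on the recovered reads called 35 genes for Setd7 without defeat, 6 for Setd7 after defeat, 85 for defeat with GFP, 7 for defeat with Setd7, 1 for the interaction, 7 for Setd7 averaged over defeat, 8 for defeat averaged over virus and 17 for sex, where limma called 0, 0, 0, 0, 0, 1, 0 and 11. Among the 9 genes it made 2 calls in the Setd7 effect after defeat, 3 in the defeat effect with Setd7 and 1 for Setd7 averaged over defeat, where limma called 0. Without a filter, 1 gene was called in each of the comparisons of Setd7 defeat with GFP defeat and with Setd7 control, and with only the groups compared 2 were called for Setd7 after defeat. For Setd7 averaged over defeat the 1 call was lost (0) with the robust fit and without the 3 libraries low in Th. The cause of these differences was not tested.

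Leaving out 1 library at a time, the genes called ran from 0 to 4 for Setd7 without defeat, 0 to 23 for Setd7 after defeat, 0 to 18 for defeat with Setd7, 0 to 3 for the interaction, 1 to 3 for Setd7 averaged over defeat, 0 to 4 for defeat averaged over virus and 10 to 11 for sex, and stayed at 0 for defeat with GFP. The median of the 9 genes ran from 0.41 to 3.21 for Setd7 after defeat, 0.39 to 3.13 for defeat with Setd7, 0.46 to 3.23 for the interaction, 0.087 to 1.41 for Setd7 averaged over defeat and 0.092 to 1.52 for defeat averaged over virus. Each of these lowest medians was without Setd7 defeat replicate 1 and each highest without Setd7 defeat replicate 2. The number of the 9 called by limma ran from 0 to 4, 0 to 2, 0 to 1, 0 to 2 and 0 to 2 in the same order. The calls came without Setd7 defeat replicate 2, where replicate 1 alone stands for its group and is assumed to vary like the others: Ogn (log2 fold change 3.21), Fn1 (1.61), Slc6a20a (2.95) and Prg4 (3.75) for Setd7 after defeat. Without Setd7 defeat replicate 1, Slc6a20a was reversed for defeat with Setd7 (-0.12, range -0.12 to 2.62 over the libraries left out) and Prg4 for the interaction (-0.21, range -0.21 to 2.91). The other 2 Setd7 and defeat comparisons, which lack the Setd7 defeat group, kept 0 of the 9 called under all alternatives run. For Setd7 without defeat DESeq2 gave no adjusted p for Ogn, Prg4, Aldh1a2, Slc22a6, Slc13a4 and Slc47a1, so it could not call them. With 2 Setd7 defeat libraries that differ by 2.33 to 14.3 times in these genes, the spread within that group limits all comparisons with it.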
